A study of Mus musculus with 24 samples.

Results

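The collagen genes of the mouse small intestine were followed here across 24 Affymetrix arrays of crypt and villus preparations. The members were all genes whose platform symbol is Col, a number, a and a number, and 42 of the 18193 genes measured met this rule. Where a gene had several probe sets (82 in all for the 42 genes), the one with the highest mean over the 24 arrays stood for it, and 15 genes had only 1. Values are log2 expression as deposited, so a difference of 1 is a doubling.

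Total RNA of crypts, where the epithelium is renewed by cell division, and of villi, whose differentiated cells absorb nutrients, had been taken from mice of 4 genotypes with 3 arrays per group. The groups were wild type (WT), Rb-/- (Rb), E2f1-/-;E2f2-/-;E2f3-/- (TKO) and E2f1-/-;E2f2-/-;E2f3-/-;Rb-/- (QKO), each as crypts and as villi. All mice, wild type included, were 2 months old, were of strain C57BL/6;FVB, and had their intestines harvested 7 days after an intraperitoneal injection of beta-napthoflavone (spelled as in the labels), an activator of the aryl hydrocarbon receptor. The labels name no Cre driver and no cell type for the deletions, and they leave unsaid whether each array had its own animal. The p-values therefore measure only the spread between these arrays, which may be technical.

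Collagens are secreted proteins whose chains wind around one another in a long helix. Fibrillar collagens form the cables of connective tissue, type VI collagen forms beaded filaments around cells, type IV collagen forms the sheet of the basement membrane under the epithelium, and other types decorate or anchor these. In the intestine fibrillar and type VI collagens are made mainly by fibroblasts and smooth muscle cells of the stroma, so their transcripts in an epithelial preparation are commonly read as a sign of stroma. The RNA is of bulk tissue, so that fewer cells of a type and less RNA per cell cannot be told apart.

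Promoter sequences are shown for 4 genes that moved together across the arrays (below), to show what lies upstream of their start sites. The sequences are the 250 bases before the annotated start, 5′ to 3′, from RefSeq's table for GRCm38.p6, which had an entry for 33 of the 42 genes. Capitals mark the letters CCAAT, the letters TATAAA and the letters GGGCGG on either strand, which do not overlap one another here.
Col1a2 (chr6:4505368-4505617, plus strand): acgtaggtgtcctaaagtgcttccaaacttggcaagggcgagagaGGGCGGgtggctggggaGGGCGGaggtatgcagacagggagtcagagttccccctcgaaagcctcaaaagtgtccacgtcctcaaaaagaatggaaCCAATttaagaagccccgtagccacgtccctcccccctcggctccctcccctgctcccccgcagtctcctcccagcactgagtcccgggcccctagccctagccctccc
Col3a1 (chr1:45311288-45311537, plus strand): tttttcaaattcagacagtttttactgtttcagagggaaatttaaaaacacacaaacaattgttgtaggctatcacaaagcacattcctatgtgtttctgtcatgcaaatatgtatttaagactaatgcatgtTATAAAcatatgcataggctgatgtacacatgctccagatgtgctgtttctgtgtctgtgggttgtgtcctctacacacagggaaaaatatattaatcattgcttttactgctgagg
Col6a1 (chr10:76726045-76726294, minus strand): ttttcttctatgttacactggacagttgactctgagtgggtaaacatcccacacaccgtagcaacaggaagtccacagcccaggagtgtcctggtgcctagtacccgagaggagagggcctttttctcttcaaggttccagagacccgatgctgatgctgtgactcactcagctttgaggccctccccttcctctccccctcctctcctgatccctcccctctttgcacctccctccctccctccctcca
Col6a2 (chr10:76623631-76623880, minus strand): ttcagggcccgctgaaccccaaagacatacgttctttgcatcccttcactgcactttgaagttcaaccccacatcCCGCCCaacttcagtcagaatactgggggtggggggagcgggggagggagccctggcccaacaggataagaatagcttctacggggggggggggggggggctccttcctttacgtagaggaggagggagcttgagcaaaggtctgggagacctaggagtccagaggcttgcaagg
The Col1a2 window held 1 CCAAT and 2 GGGCGG, the Col3a1 window 1 TATAAA, the Col6a2 window 1 GGGCGG on the opposite strand, and the Col6a1 window none of the 3 motifs. CCAAT was found in 33.8% of all 32851 promoters of the table, TATAAA in 12.4% and GGGCGG in 32.7%. Of the 33 collagen genes with an entry, 13 held CCAAT in at least 1 promoter, 5 TATAAA and 20 GGGCGG. These counts are by gene and the shares by promoter, so the 2 cannot be set against each other. The 4 genes thus had no one of these motifs in common.

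Some facts of the whole series touch the collagen values. The mean of the poly-A control probe sets, which read RNAs added during labelling, was 5.44 to 7.13 on the 12 WT and Rb arrays and 9.70 to 11.89 on the 12 TKO and QKO arrays, with no overlap, so that what set these controls apart and the loss of E2f1 to E2f3 cannot be told apart. Array medians were 4.97 to 5.08 except on QKO crypts 2 (5.17) and QKO villi 3 (5.26). Rb1, the targeted gene, read 8.46 on the array labelled WT crypts 3, among Rb-deleted levels of 8.13 to 9.36, and 10.25 on the array labelled Rb crypts 2, near the 10.31 to 10.93 of the other WT arrays. These 2 arrays go against their labels, and results for WT and Rb crypts speak of the arrays labelled so. The mean of 10 pan-epithelial genes (such as Epcam) lay between 12.19 and 12.68 on every array.

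Most collagen genes hardly varied. Over the 24 arrays the range of a gene was under 1 log2 unit in 25 of the 42 genes, 1 to 2 units in 11 and over 2 units in 6. Only 7 genes had a mean above 6.39, the median of all gene values. The variation was concentrated in fibrillar and beaded-filament genes, as the map of all members shows: Col3a1 ranged from 5.57 to 11.39, Col1a2 from 5.33 to 8.37, Col6a1 from 4.44 to 7.67 and Col6a2 from 6.00 to 8.72. The SD between arrays of 1 group was 1.49 for Col3a1, 0.80 for Col1a2, 0.67 for Col6a1 and 0.59 for Col6a2, against a median of 0.19 over all genes. Only 0.09% of all genes had a larger within-group SD than Col3a1.

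**Figure D1:**
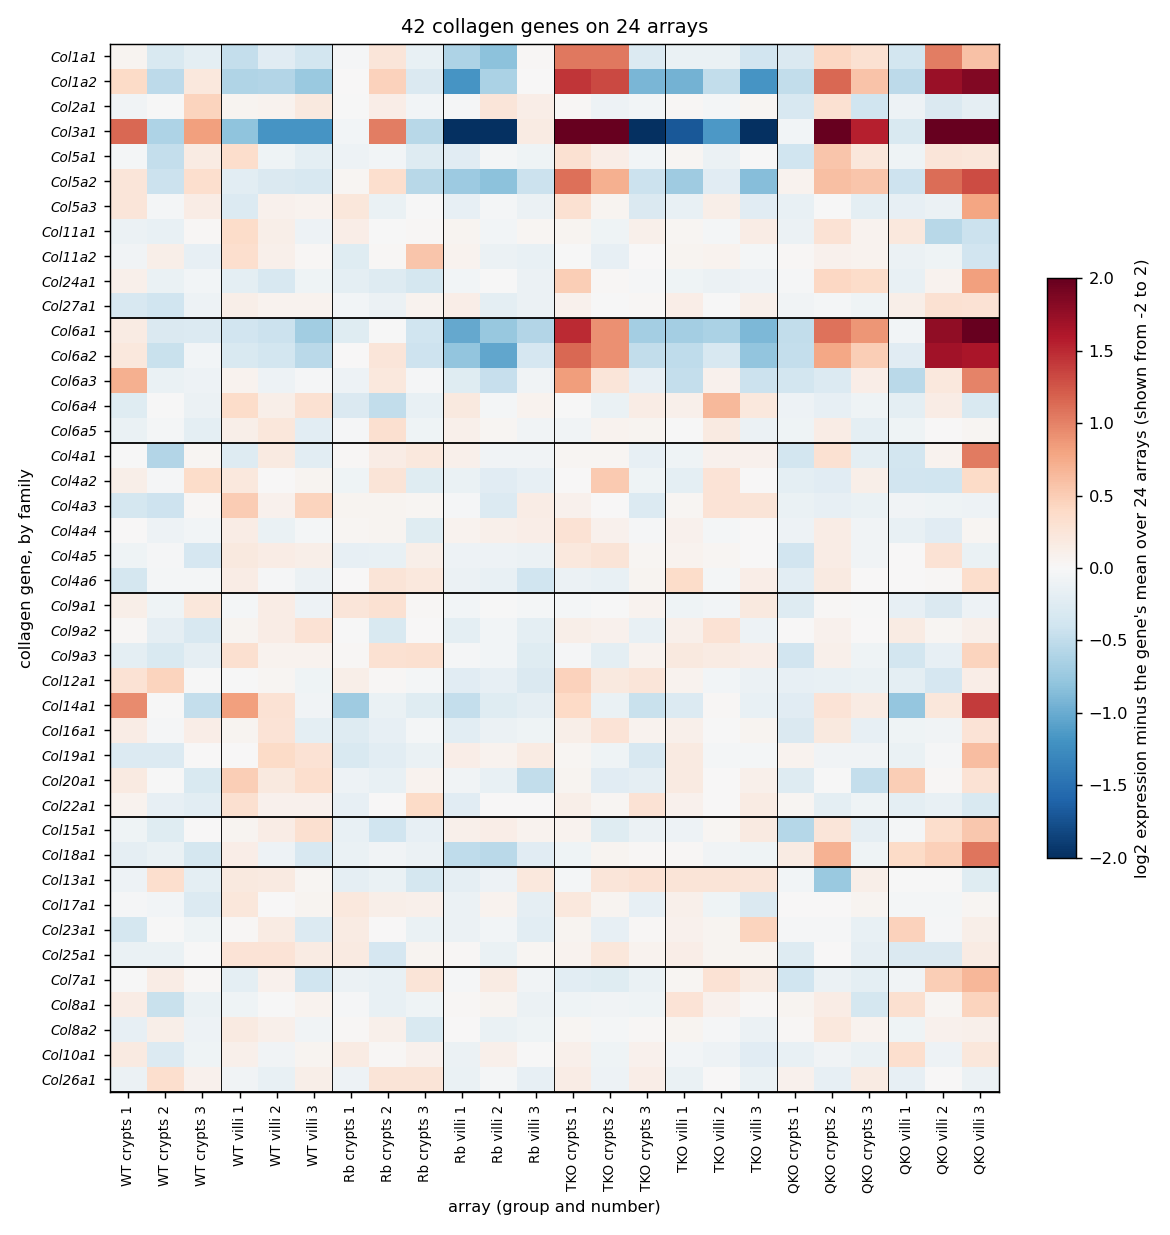
Each row is 1 of the 42 collagen genes, sorted by family (black lines: fibrillar, beaded-filament, basement membrane, fibril-associated, multiplexin, transmembrane, others), each column 1 array, and the colour the log2 expression minus the gene's own mean over 24 arrays, shown from -2 to 2. Red blocks on TKO crypts 1 and 2, QKO crypts 2 and 3 and QKO villi 2 and 3 stand in the rows of Col1a1, Col1a2, Col3a1, Col5a2, Col6a1 and Col6a2, while most other rows are pale.

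A set of 6 genes moved as a unit from array to array. As a yardstick the mean of Col1a1, Col1a2 and Col3a1, the chains of type I and type III collagen, was taken on each array (for these 3 genes, the mean of the other members of the trio). Pearson's r with it over 24 arrays was 0.98 for Col1a2, 0.96 for Col6a2, 0.95 for Col3a1, 0.95 for Col5a2, 0.94 for Col6a1 and 0.89 for Col1a1. With the group means taken out r was still 0.92 to 0.98 for these 6 genes. The points share the array, its normalization and the group, so r is a description of these arrays. Col6a3, a further chain of type VI collagen, followed less closely (0.70), as did Col24a1 (0.65), Col18a1 (0.58), Col5a1 (0.58), Col5a3 (0.53), Col14a1 (0.49) and Col4a1 (0.44). In 27 members r lay between -0.4 and 0.4, among them Col4a2 (0.26) and Col15a1 (0.16), and in 2, Col11a1 (-0.45) and Col6a4 (-0.47), it was below -0.4. The 42 genes therefore did not move as 1 group on these arrays.

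Col3a1, the chain of type III collagen found in reticular fibres, shows the pattern at its largest. It read 9.39, 7.63 and 9.06 on WT crypts 1, 2 and 3 and 7.44, 7.07 and 7.07 on the WT villi. It read 8.19, 9.27 and 7.68 on the Rb crypts and 5.58, 6.19 and 8.40 on the Rb villi. In TKO the crypts gave 10.71, 10.33 and 5.60 and the villi 6.54, 7.10 and 5.57, so TKO crypts 3 stood at the level of the villi while the other crypt arrays were far above them. In QKO the crypts gave 8.18, 10.38 and 9.79 and the villi 7.94, 11.31 and 11.39, with the first array of each compartment well below its partners. QKO villi 2 and 3 were the highest of all 24 arrays.

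Col1a2, a chain of type I collagen, the main fibre protein of connective tissue, had a smaller range. Its levels were 6.90, 6.00 and 6.73 on WT crypts, 5.92, 5.93 and 5.77 on WT villi, 6.53, 6.97 and 6.22 on Rb crypts and 5.33, 5.88 and 6.52 on Rb villi. On TKO crypts they were 7.94, 7.83 and 5.60, on TKO villi 5.57, 6.03 and 5.33, on QKO crypts 6.03, 7.67 and 7.08 and on QKO villi 5.99, 8.25 and 8.37. Again TKO crypts 3 and QKO villi 1 stood with the low arrays of the series rather than with their own group. Col1a1, its partner chain, was highest on TKO crypts 1 and 2 (5.76 and 5.77, against 4.43 on TKO crypts 3) and QKO villi 2 (5.74, against 4.35 and 5.30 on QKO villi 1 and 3). Its lowest values were 4.10 and 3.89 on Rb villi 1 and 2.

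Col6a1 and Col6a2 encode chains of type VI collagen that assemble into 1 protein. Col6a1 was within 4.44 to 5.63 on all 12 WT and Rb arrays. It was above that range on TKO crypts 1 and 2 (6.96 and 6.37, array 3 at 4.78), on QKO crypts 2 and 3 (6.55 and 6.34, array 1 at 4.97) and on QKO villi 2 and 3 (7.24 and 7.67, array 1 at 5.41). Col6a2 read 8.19, 7.96 and 6.55 on TKO crypts, 6.57, 7.81 and 7.53 on QKO crypts and 6.81, 8.72 and 8.68 on QKO villi, against 6.53, 6.73 and 6.26 on TKO villi and 6.26, 6.00 and 6.70 on Rb villi. Col5a2, a chain of type V collagen, which sits inside type I fibres, gave 5.74, 5.36 and 4.22 on TKO crypts and 4.23, 5.76 and 5.95 on QKO villi. For all of them the high arrays were the same ones as for Col3a1.

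**Figure D2:**
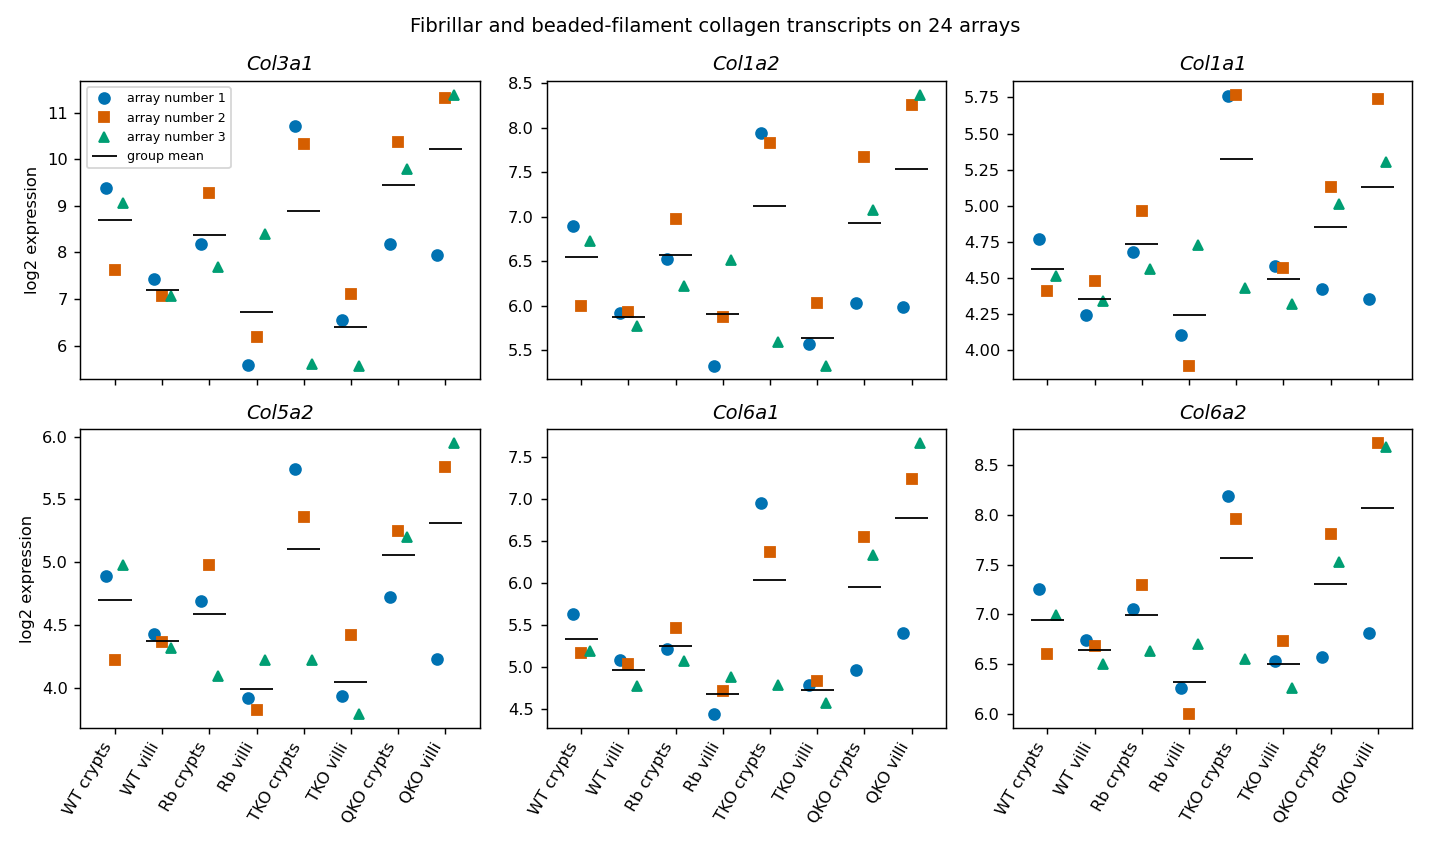
Log2 expression (y axis, own scale per gene) of the 6 genes that moved together, by group (x axis), with 1 symbol per array number and a bar at the group mean. TKO crypts 3 lies near the TKO villi (Col3a1 5.60 against 5.57 to 7.10), and QKO villi 1 lies far below QKO villi 2 and 3 (Col3a1 7.94 against 11.31 and 11.39).

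The highest group mean was that of QKO villi for 5 of these 6 genes (for Col1a1 it was TKO crypts), and the lowest was that of TKO villi for Col3a1 and Col1a2 and of Rb villi for the other four. The order between them varied from gene to gene, and neighbours in it mostly did not differ beyond their spread. For Col3a1 the group means ran from 10.21 ± 1.97 (SD, n = 3) in QKO villi to 6.40 ± 0.78 in TKO villi, and for Col6a1 from 6.78 ± 1.20 in QKO villi to 4.68 ± 0.22 in Rb villi. Differences between groups were tested with limma, moderated linear models fitted to all genes, over 15 comparisons. Called here means an adjusted p under 0.05 (Benjamini-Hochberg over 18193 genes within a comparison). Of 630 tests of a member in a comparison 26 were called, in 15 genes, while 27 genes were called in none.

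The comparison of QKO villi with Rb villi asks what the loss of E2f1 to E2f3 adds when Rb is absent. Of the 42 collagen genes 7 rose and 0 fell, against 22.2% of all genes called in either direction there and 14.2% called higher, so the 16.7% of collagen genes called higher was near the background. Falls appeared in other fits: 5 genes rose and 2 fell after median centring, 6 and 2 with quantile normalization (Col4a4 and Col2a1 lower in both), and 8 and 2 with array weights (Col4a4 and Col11a1 lower). Of the 7 genes 5 belong to the set that moved together. Col3a1 rose by 3.49 ± 1.07 log2 units (± is the SE of the fit from here on, an 11.2-fold change, adjusted p = 0.022 by limma), Col6a1 by 2.10 ± 0.49 (adjusted p = 0.0036), Col6a2 by 1.75 ± 0.43 (0.0056), Col1a2 by 1.63 ± 0.58 (0.047) and Col5a2 by 1.33 ± 0.38 (0.014). Col18a1, the collagen XVIII chain that carries endostatin and lies in basement membranes, rose by 1.07 ± 0.18 (0.00023) and Col20a1, a fibril-associated collagen, by 0.50 ± 0.16 (0.025). Col1a1 differed by 0.89 ± 0.32 with an adjusted p of 0.052. The median difference over the 42 genes was 0.18, against 0.08 over all genes. With every probe set tested, 13 collagen genes were called through at least 1 probe set, 12 higher and 1 lower. Of the representative probe sets 6 were called in that fit. The share of all genes under this rule was not counted, so the 14.2% and 22.2% are not its background.

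The poly-A controls also differ between the Rb and QKO arrays (above). For Col3a1 and Col1a2 QKO villi 1 stood within the range of the Rb villi. For Col5a2 it read 4.23, next to the highest Rb villus array at 4.22. The number of called genes hung on single arrays, and shares of all genes are not given for these refits. The number was 13 without QKO villi 1 (12 higher and 1 lower), 4 without QKO villi 2, 3 without QKO villi 3 and 4 without Rb villi 2. Col18a1, Col6a1 and Col6a2 were called with any 1 of the QKO villus arrays left out. Without QKO villi 1 the Col3a1 difference was 4.63 ± 1.07 (adjusted p = 0.004) and without QKO villi 3 it was 2.90 ± 1.19 (adjusted p = 0.10).

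QKO villi against TKO villi asks what the loss of Rb adds when E2f1 to E2f3 are absent. Here 5 collagen genes rose and 0 fell, that is 11.9% of them called higher against 5.51% of all genes (6.68% in either direction). The called genes were Col6a1 (2.05 ± 0.49, adjusted p = 0.014 by limma), Col18a1 (0.69 ± 0.18, 0.024), Col6a2 (1.56 ± 0.43, 0.032), Col3a1 (3.81 ± 1.07, 0.035) and Col5a2 (1.26 ± 0.38, 0.047). Col1a2 gave 1.90 ± 0.58 with an adjusted p of 0.052. With every probe set tested, 6 collagen genes were called through at least 1 probe set, all higher. Col1a2 and Col27a1 were among them, each through a dimmer probe set, and Col5a2 was not. The share of all genes under this rule was not counted. For Col5a2 QKO villi 1 (4.23) stood within the range of the TKO villi (3.79 to 4.42). The QKO arrays are shared with the comparison above, so the values in both are not independent. Leaving out QKO villi 1 gave 8 calls (7 higher and 1 lower), and leaving out QKO villi 3 gave 0. Without QKO villi 2 there were 3 (2 higher and 1 lower): Col6a4, Col18a1 and Col10a1, none of them in the set that moved together. Without TKO villi 1 there were 2 (1 higher and 1 lower), and without TKO villi 2 or 3 there was 1, Col6a1, higher. The poly-A control means did not overlap between these groups either (11.28 to 11.89 in QKO villi, 10.52 to 10.77 in TKO villi), and their part in the result was not tested.

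Col18a1 differed from the 6 genes above in its pattern. Its levels were 6.83, 6.92 and 7.51 on QKO villi, all above the 6.13 to 6.57 of WT villi, 5.93 to 6.22 of Rb villi and 6.36 to 6.47 of TKO villi. QKO crypts gave 6.60, 7.14 and 6.36. QKO villi 1 was thus near QKO villi 2 for Col18a1. It was far below QKO villi 2 for the 6 genes, such as Col6a1 (5.41 against 7.24). A second, dimmer probe set of this gene was not called in any comparison when every probe set was tested.

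**Figure D3:**
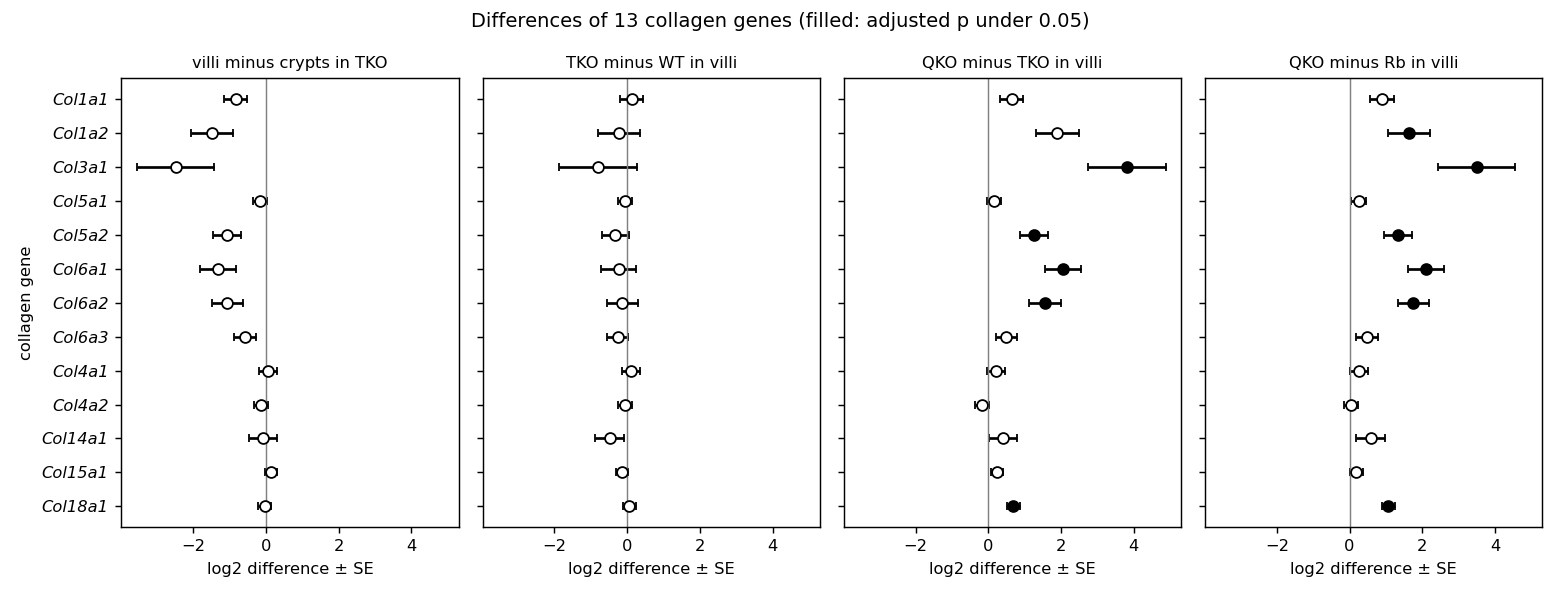
Log2 difference with its SE (x axis) for 13 collagen genes (y axis) in 4 comparisons, filled where the adjusted p was under 0.05. In QKO minus Rb and QKO minus TKO villi Col3a1 lies at 3.49 and 3.81, and no gene is filled in the other panels.

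Villi were next compared with crypts within each genotype. In the TKO, 0 genes were called at an adjusted p under 0.05 (15.4% of all genes were), and 9 of 42 had an unadjusted p under 0.05. Villi minus crypts was -2.48 ± 1.07 for Col3a1 (adjusted p = 0.13 by limma), -1.48 ± 0.58 for Col1a2 (0.089), -1.31 ± 0.49 for Col6a1 (0.076) and -1.06 ± 0.38 for Col5a2 (0.061), and TKO crypts 3 lay within the range of the villus arrays for each of these 4 genes. Array numbers pair TKO crypts with villi by the values (deviations from the group means of arrays of 1 number correlated at 0.61, 0.55 and 0.64). With the number as a block, which removes the shared deviation, 6 genes fell in villi: Col6a1 (adjusted p = 0.005), Col1a2 (0.011), Col6a2 (0.013), Col5a2 (0.017), Col1a1 and Col3a1 (both 0.023). The same 6 were called without TKO crypts 3, with a Col3a1 difference of -4.12 ± 0.90 (adjusted p = 0.0082). That array is the one singled out for its villus-like values, so leaving it out widens the difference by choice and is no separate evidence. No other TKO array left out gave a call. Shares of all genes called in these other fits are not given here.

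In the WT, 5 collagen genes were higher in villi and 0 lower, while 37.4% of all genes were called and 18.8% called higher. They were Col4a3 (0.59 ± 0.13, adjusted p = 0.0011 by limma), Col27a1 (0.36 ± 0.11, 0.013), Col9a2 (0.32 ± 0.12, 0.033), Col6a4 (0.38 ± 0.14, 0.042) and Col19a1 (0.41 ± 0.16, 0.045). Col4a3 is a chain of basement membrane collagen, and Col27a1 is a fibrillar collagen best known from cartilage. None of the 6 genes that moved together was called: Col3a1 gave -1.50 ± 1.07 (adjusted p = 0.29). In a fit of the WT arrays alone, whose spread is smaller, Col3a1 (-1.50 ± 0.37, adjusted p = 0.0089) and Col1a2 (-0.67 ± 0.21, 0.029) were called lower in villi, among 4 genes higher and 2 lower. Without WT crypts 3 and Rb crypts 2, which go against their labels, it was 4 higher and 1 lower (Col12a1). The count was 2 without WT crypts 2, 3 without WT villi 2 and 2 without WT villi 3, and 3 with the number as a block.

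In the QKO, 4 genes were higher in villi and 0 lower, with 33.4% of all genes called and 13.5% called higher. These were Col7a1 (0.60 ± 0.16, adjusted p = 0.0071 by limma), the chain of anchoring fibrils, Col20a1 (0.52 ± 0.16, 0.014), Col15a1 (0.47 ± 0.17, 0.038), a collagen of the zone beneath basement membranes, and Col27a1 (0.30 ± 0.11, 0.043). Col6a1 (0.82 ± 0.49, adjusted p = 0.22) and Col6a2 (0.77 ± 0.43, 0.19) were not called, but were with the number as a block (adjusted p = 0.029 and 0.037). The count was 10 without QKO villi 1 (9 higher and 1 lower), 1 without QKO villi 3, 2 without QKO crypts 1 and 1 without QKO crypts 3. In the Rb, 0 collagen genes were called (17.3% of all genes were), with 3 at an unadjusted p under 0.05, and 1 was called without Rb crypts 3. Col3a1 there gave -1.66 ± 1.07 (adjusted p = 0.32), with Rb villi 3 (8.40) apart from Rb villi 1 and 2 (5.58 and 6.19).

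Whether a genotype altered the villus minus crypt difference was tested directly. For the Rb against the WT 1 gene was called, Col4a3, at -0.69 ± 0.18 (adjusted p = 0.029 by limma, 5.22% of all genes called and 1.1% called lower). Its levels were 3.51, 3.45 and 3.88 on WT crypts and 4.36, 3.95 and 4.30 on WT villi, against 3.91, 3.92 and 3.90 on Rb crypts and 3.83, 3.59 and 4.01 on Rb villi. For the QKO against the WT 1 gene was called, Col7a1, at 0.83 ± 0.23 (adjusted p = 0.040, 5.44% of all genes called and 2.87% called higher). Col7a1 read 6.57, 6.73 and 6.60 on WT crypts and 6.38, 6.66 and 6.18 on WT villi, against 6.18, 6.46 and 6.39 on QKO crypts and 6.51, 7.07 and 7.25 on QKO villi. Col4a3 was not called without WT crypts 1 or 2, Rb crypts 2 or 3, WT villi 1 or 3 or Rb villi 1 or 2 (differences of -0.59 to -0.83 over all arrays left out in turn). Col7a1 was called without WT villi 2, QKO villi 1 or QKO crypts 2, and not without any other array (0.67 to 1.04). With quantile normalization neither kept its call (adjusted p = 0.067 for Col4a3 and 0.07 for Col7a1), nor in fits of only the groups compared (0.062 and 0.12). Without WT crypts 3 and Rb crypts 2 the QKO change of Col7a1 was 0.84 ± 0.25 (adjusted p = 0.065), and Col4a3 was called there instead (-0.66 ± 0.18, 0.044). In that fit the Rb change of Col4a3 was -0.82 ± 0.19 (adjusted p = 0.02) and kept its call. For the TKO against the WT 0 were called (3.43% of all genes), with 3 at an unadjusted p under 0.05.

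Few collagen genes were called between genotypes in crypts. Rb against WT gave 0 collagen calls (0% of all genes, with 5 members at an unadjusted p under 0.05), and 2 arrays of these groups go against their labels. TKO against WT crypts gave 0 (4.73% of all genes, 3 at an unadjusted p under 0.05). Col1a1 differed there by 0.76 ± 0.32 (adjusted p = 0.19), and without TKO crypts 3 by 1.20 ± 0.29 (adjusted p = 0.037, the only member called then). No other array left out gave a call in that comparison. QKO against Rb crypts gave 1, Col24a1 (0.52 ± 0.17, adjusted p = 0.043 by limma), a minor fibrillar collagen, with 17.2% of all genes called and 13.4% called higher. It was not called without any 1 of the 3 Rb crypt arrays, or without QKO crypts 2 or 3. QKO against TKO crypts gave 0 (1.61% of all genes, 2 at an unadjusted p under 0.05).

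In villi of the single and triple mutants, TKO against WT gave 0 calls and 0 members at an unadjusted p under 0.05 (9.77% of all genes called). Rb against WT gave 2 lower, Col20a1 (-0.57 ± 0.16, adjusted p = 0.015 by limma) and Col4a3 (-0.39 ± 0.13, 0.046), with 14.8% of all genes called and 6.19% called lower. The count was 0 without WT villi 1, and 1 without WT villi 3 or any 1 Rb villus array.

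Basement membrane collagens followed the fibrillar genes less closely. The mean of the 6 had an r of 0.31 with the yardstick over 24 arrays, and of 0.67 with the group means taken out. Col4a1 and Col4a2, the common pair of chains under epithelium and vessels, were called in none of the 15 comparisons. Col4a1 stayed between 4.12 and 5.01 on 23 arrays and read 5.74 on QKO villi 3, the array with the highest median. Col4a2 stayed between 4.09 and 5.02 throughout. A dimmer probe set of Col4a5 (2.75 to 3.79) had an r of 0.81 with the yardstick and was called in QKO minus Rb villi when every probe set was tested. In that fit a dimmer probe set of Col4a6 (4.49 to 5.40, r = -0.44) was called in 4 comparisons. They were villi minus crypts in WT, Rb minus WT in villi, QKO minus Rb in crypts and the villus minus crypt difference of Rb against WT. The brightest probe set of Col4a6 was called in none of them. Of the 14 measured laminins and other basement membrane genes, such as Agrn, 3 rose in QKO against Rb villi (21.4%, against 14.2% of all genes) and 1 against TKO villi (7.14%, against 5.51%), and 0 fell. The mean of this list had an r of -0.03 with the type I and III mean over 24 arrays and of 0.12 with the group means taken out.

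Col14a1 and Col6a3, fibroblast collagens in many tissues, varied by array without a call. Col14a1 was highest on QKO villi 3 (5.88), WT crypts 1 (5.43) and WT villi 1 (5.30). Col6a3 was highest on QKO villi 3 (6.21), TKO crypts 1 (6.05) and WT crypts 1 (5.93). Col5a1, by its brightest probe set, lay between 5.61 and 6.63 and was not called, but a dimmer probe set of the gene, ranging from 3.41 to 5.54, had an r of 0.83 with the yardstick mean and was called in QKO minus Rb villi when every probe set was tested. The brightest probe set is therefore not always the one that moved.

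Genes outside the family that moved most like the type I and III collagens were Fstl1 (r = 0.939 over 24 arrays), Sparc (0.932), Loxl1 (0.906), Cdh11 (0.879), Lgals1 (0.870), Anxa1 (0.857), Dcn (0.847) and Mxra8 (0.838). Sparc is a collagen-binding matrix glycoprotein, Loxl1 a lysyl oxidase that cross-links matrix, Cdh11 a cadherin of mesenchymal cells and Dcn a proteoglycan that decorates collagen fibres. Dcn read 7.46, 8.86 and 9.02 on QKO villi, against 5.29 to 6.47 on Rb villi and 5.24 to 5.94 on TKO villi. The difference was 2.46 ± 0.59 against Rb villi and 2.75 ± 0.59 against TKO villi. Dcn also read 8.88 on WT crypts 1, 8.76 on Rb crypts 2 and 8.81 and 8.75 on TKO crypts 1 and 2. These 8 genes were picked by their r with a mean that was highest on QKO villi 2 and 3. Their levels there are thus no separate evidence of a rise. Fstl1 read 5.05, 7.02 and 7.60 on QKO villi.

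The list means most like the collagen yardstick over the 24 arrays were those of other stromal matrix and of collagen biosynthesis. Over 24 arrays r was 0.88 for 24 other stromal matrix genes, 0.75 for 26 genes of collagen biosynthesis, 0.66 for 13 fibroblast markers, 0.61 for 15 genes of collagen degradation, 0.47 for 12 smooth muscle markers, 0.27 for 14 endothelial markers, 0.11 for 14 leukocyte markers and -0.06 for 10 pan-epithelial markers. With the group means taken out r was 0.89, 0.67, 0.81, 0.57, 0.5, 0.37, 0.28 and 0.54 in the same order, so that the pan-epithelial mean also followed the collagens within groups. Fibroblast marker means ran from 4.69 to 5.89, other stromal matrix from 4.88 to 5.90 and smooth muscle from 5.11 to 6.05. Their highest points were QKO villi 3 for the first 2 lists and the array labelled Rb crypts 2 for smooth muscle (6.05, with QKO villi 3 at 5.84).

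**Figure D4:**
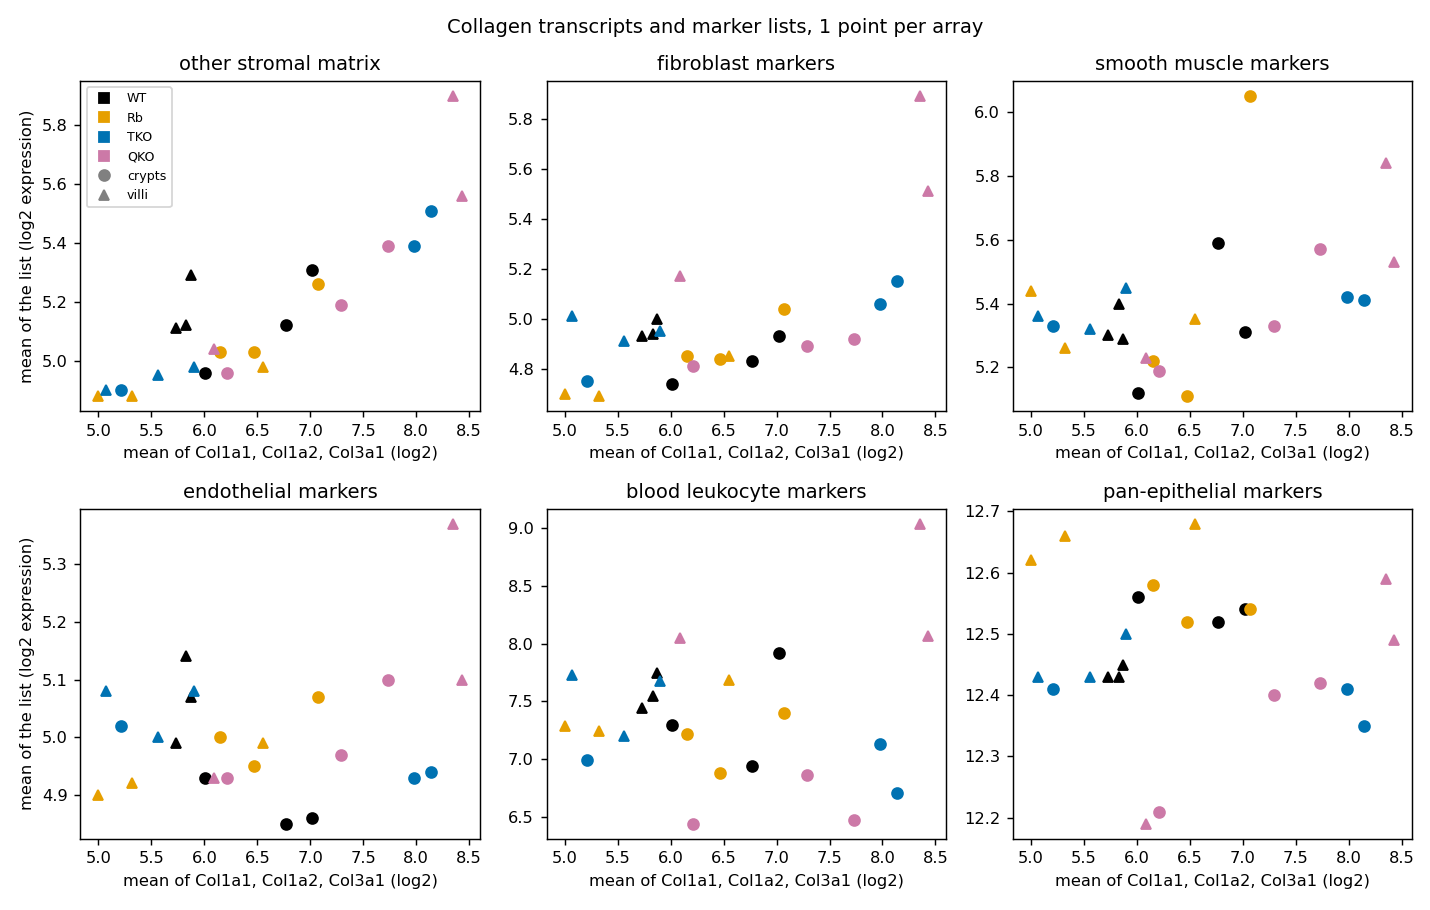
Each point is 1 of 24 arrays; the x axis is the mean of Col1a1, Col1a2 and Col3a1 and the y axis the mean of a list (both log2 expression, colour for genotype, circles for crypts, triangles for villi). Over 24 arrays r is 0.88 for other stromal matrix, 0.11 for leukocyte markers and -0.06 for pan-epithelial markers (0.89, 0.28 and 0.54 with the group means taken out).

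Markers of other cell types also rose in QKO villi, and their part in the result was not tested. Of all genes 14.2% were called higher and 8.02% lower against Rb villi, and 5.51% higher and 1.17% lower against TKO villi. Of 13 fibroblast markers 5 rose against Rb villi (38.5%) and 4 against TKO villi (30.8%), with 0 lower in each. Vim, Thy1 (which T cells also carry), S100a4 and Cd34 rose in both, and Dpt against Rb villi alone. Vim rose by 2.56 ± 0.32 (adjusted p = 1.1e-05 by limma) and 1.75 ± 0.32 (adjusted p = 0.002). Pdgfra, Pdgfrb, Pi16, Gli1, Foxf1, Foxl1, Twist2 and Tcf21 were called in neither. The fibroblast mean was 5.17, 5.51 and 5.89 on QKO villi 1, 2 and 3, against 4.69 to 4.85 on Rb villi and 4.91 to 5.01 on TKO villi. On QKO villi 1 it was raised mostly by Thy1 (7.25, Rb villi 5.02 to 5.42) and Vim (8.86, Rb villi 6.46 to 7.35). Pdgfra (3.79), Cd34 (3.70) and S100a4 (4.72) lay within the Rb villus range on that array and Pdgfrb (5.04) below it. The other markers of the list were less far above it. Of 14 leukocyte markers 7 rose in each comparison (50%) and 0 fell, among them Coro1a, Cd3e and Laptm5, and the list mean was 8.05, 8.07 and 9.04 on QKO villi, against 7.24 to 7.69 and 7.20 to 7.73. The leukocyte mean was thus above the Rb and TKO villus arrays on all 3 QKO villus arrays. Col3a1 was above them on 2, with QKO villi 1 (7.94) inside the Rb villus range (5.58 to 8.40). Col6a1 (5.41) and Col6a2 (6.81) on QKO villi 1 were above every Rb and TKO villus array.

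Fewer genes of the remaining marker lists were called. Smooth muscle markers gave 1 rise of 12 against Rb villi (Cald1, 8.33%) and 0 against TKO villi, with means of 5.23, 5.53 and 5.84 on QKO villi, 5.26 to 5.44 on Rb villi and 5.32 to 5.45 on TKO villi. Endothelial markers gave 1 of 14 (Tek, 7.14%) and 0, and enteric glia markers 1 of 5 (S100b, 20%) and 0. Of the defining markers Pdgfra (fibroblasts) lay between 3.27 and 5.47 on the 24 arrays, Acta2 (smooth muscle) between 5.19 and 7.83 and Pecam1 (endothelium) between 3.40 and 4.08. Pan-epithelial markers gave 3 falls of 10 (30%) against Rb villi (Cdx2, Krt19 and Epcam) and 1 rise (Krt18) and 1 fall (Cdx2) against TKO villi.

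Of 26 genes of collagen biosynthesis 4 rose against Rb villi (15.4%, near the 14.2% of all genes) and 4 against TKO villi (15.4%, against 5.51%), with 0 lower in each. Bmp1, the protease that trims the procollagen end, rose by 1.54 ± 0.29 (adjusted p = 0.0007 by limma) and 1.07 ± 0.29 (0.031), and P3h4, a helper of lysine modification, by 0.68 ± 0.18 (0.009) and 0.62 ± 0.18 (0.042). Pcolce, which enhances Bmp1, rose by 0.63 ± 0.14 (0.0031) against Rb villi, and Serpinh1, the collagen chaperone, by 0.95 ± 0.29 (0.050, under 0.05 before rounding) against TKO villi. Bmp1 was also higher in villi than in crypts of WT (1.57 ± 0.29, adjusted p = 0.00022), TKO (0.93 ± 0.29, 0.035) and QKO (1.79 ± 0.29, 8.6e-05), and lower in Rb than in WT villi (-1.0 ± 0.29, 0.023). On the degrading side 2 of 15 genes (13.3%) rose in each comparison, below the 14.2% of all genes against Rb villi and above the 5.51% against TKO villi, with Timp2, an inhibitor of matrix proteases, in both (1.05 ± 0.22 and 0.93 ± 0.22). Of 8 collagen receptors Lair1, an inhibitory receptor of leukocytes, rose in both (0.82 ± 0.16 and 0.62 ± 0.16), Itgb1 fell against Rb villi (-0.43 ± 0.14) and Itga1 rose against TKO villi (1.0 ± 0.24).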

How the data were processed

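The authors deposited 1 log2 value for each probe set and array. The labels and headers used here do not state how these were summarised or normalized. RNA was extracted with Trizol and labelled cRNA made from 3 ug, per the labels' protocols. The platform annotation named 1 gene for 34945 of 45101 probe sets. Each of the 18193 genes was represented by its brightest probe set, with no offset, filter or further normalization. The number of arrays limits the precision.

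Groups were taken from the labels. limma 3.58.1 in R 4.3.3 fitted 1 mean per group over 24 arrays and a variance trend on intensity (16 residual and 4.86 prior df), 2-sided, with Benjamini-Hochberg adjustment within each of 15 comparisons. The fit was tested on simulated data (18193 genes, TKO minus WT, villi), where 26.9%, 83.6% and 100% of genes changed by 0.5, 1 and 2 were called, and 0.05% of unchanged genes. The changed genes were drawn at random and the noise was independent between genes. The rates therefore do not describe genes with a large, shared spread, such as Col3a1 (within-group SD of 1.49). Correlations within groups were 0.978 to 0.995, and 0 pairs were identical.

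The pairing of numbers was checked on deviations from group means between crypts and villi. Same-numbered arrays correlated at 0.61, 0.55 and 0.64 in TKO and 0.55, 0.25 and 0.37 in QKO, so the numbers pair there, by the values and not the labels. In WT (0.01, 0.13, 0) and Rb (0.06, -0.01, -0.24) they do not.

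The members and lists were chosen with earlier results of these data known. Named were 13 collagens listed beforehand, every other collagen called in any comparison, up to 3 called genes with the smallest p per list, and the 8 genes most like the mean of Col1a1, Col1a2 and Col3a1. Members named for their range, r or a list level (such as Col11a1, Col5a3, Pdgfra, Acta2 and Pecam1) were chosen after their values were seen. All measured fibroblast markers are named, called or not. Alternatives were quantile normalization, median centring, removal of dim genes, the mean of probe sets, only the groups compared, no intensity trend, array weights, replicate blocks, and leaving out arrays. Testing every probe set was chosen after seeing the data. Figures were drawn with matplotlib 3.10.9.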

Additional observations from a re-analysis of the deposited data

Results flagged for a closer look

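The villus minus crypt difference of Col4a3 differed by -0.69 between the Rb and the WT (Rb minus WT) in a test of the difference itself (limma, adjusted p = 0.029). Leaving out 1 array moved it between -0.59 and -0.83, and with the mean of its probe sets it was -0.35 (adjusted p = 0.15). Its adjusted p was 0.067 with quantile normalization and 0.062 with only the groups compared. The Col4a3 value without WT crypts 3 and Rb crypts 2 was -0.82 (adjusted p = 0.02). The villus minus crypt difference of Col7a1 differed by 0.83 (QKO minus WT) in the same test (adjusted p = 0.040). Leaving out 1 array moved it between 0.67 and 1.04, and in a fit of only the groups compared its adjusted p was 0.12. Without WT crypts 3 and Rb crypts 2 it was 0.84 (adjusted p = 0.065).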

How the results depend on the processing

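Of 413 alternative values for single genes named as called, 261 kept direction and call, 152 lost the call and 0 reversed. Counts of called collagen genes moved more, and the cause was not tested unless the setting leaves out arrays or genes. The counts below take both directions together, and shares of all genes are given for the main fit alone. For villi minus crypts in WT (5) the count was 3 with median centring, 2 with dim genes removed, 9 with array weights, 3 with a replicate block and 3 representative probe sets with every probe set tested (5 genes through any probe set). For villi minus crypts in Rb (0) it was 1 with quantile normalization, 1 with median centring, 6 with array weights and 1 with only the groups compared. For villi minus crypts in TKO (0) it was 2 with quantile normalization, 2 with centring, 1 with array weights and 6 with the replicate block. For villi minus crypts in QKO (4) it was 2 with dim genes removed and 0 with only the groups compared. For Rb minus WT in villi (2) it was 1 with centring, 0 with dim genes removed, 1 without the intensity trend, 5 with array weights, 4 with only the groups compared and 1 representative probe set with every probe set tested (2 genes through any probe set). For TKO minus WT in crypts (0) it was 1 with quantile normalization and 1 with the mean of probe sets, and for QKO minus TKO in crypts (0) it was 1 with quantile normalization and 1 with centring. For QKO minus Rb in crypts (1) it was 0 with dim genes removed and 0 without the trend. With only the groups compared it was 3 for QKO minus Rb in villi (7) and 0 for QKO minus TKO in villi (5). With every probe set tested, 13 genes were called through any probe set in QKO minus Rb in villi, 1 in TKO minus WT in crypts, and 2 each in QKO minus Rb in crypts and the Rb change. For the Rb change of villi minus crypts (1) it was 0 with centring, 0 with dim genes removed and 3 with array weights; it was 1 with another gene called under quantile normalization and only the groups compared (Col9a3) and the mean of probe sets (Col4a6), where Col4a3 was not called, and for the QKO change (1) it was 0 with quantile normalization, 2 with array weights and 0 with only the groups compared.

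Without QKO villi 3 and QKO crypts 2, the arrays of high median, the counts were 9, 1, 1 and 2 for villi minus crypts in WT, Rb, TKO and QKO, 2 for QKO minus Rb in crypts, 4 for QKO minus Rb in villi, 0 for QKO minus TKO in villi, 2 for the Rb change and 0 for the QKO change. With the 2 arrays that go against their labels left out (WT crypts 3, Rb crypts 2) the count for QKO minus Rb in crypts was 0, and for the QKO change Col4a3 was called in place of Col7a1. Leaving out 1 array gave 2 to 4 for villi minus crypts in WT, 0 to 1 in Rb, 0 to 6 in TKO and 1 to 10 in QKO. It gave 0 to 2 for Rb minus WT in villi, 0 to 1 for TKO minus WT in crypts, 0 to 1 for QKO minus Rb in crypts, 3 to 13 for QKO minus Rb in villi and 0 to 8 for QKO minus TKO in villi. For the Rb change it gave 0 to 1 and for the QKO change 0 to 2. Under the replicate block no other count than the 2 above moved by over 1.5 times: QKO minus Rb in villi had 8, QKO minus TKO in villi 6 and villi minus crypts in QKO 5. In WT and Rb the samples share only a number.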
